A study of Mus musculus with 50 samples.

Results

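The genes described here encode the nuclear-encoded subunits of the mitochondrial respiratory chain and of the ATP synthase, measured in single mouse oocytes that carried or lacked Zfp36l2. All rows of the count table were taken whose symbol begins with Ndufa, Ndufb, Ndufc, Ndufs, Ndufv, Sdha, Sdhb, Sdhc, Sdhd, Uqcr, Cox4i, Cox5, Cox6, Cox7, Cox8 or Atp5, leaving out the Ndufaf assembly factors. This gave 86 of the 16614 rows, with no measured value used in the choice. They fell into 35 genes of complex I, 4 of complex II, 8 of complex III, 17 of complex IV and 15 of complex V. The remaining 7 share a name start but are no structural subunits, namely the assembly factors Sdhaf1 to Sdhaf4, the supercomplex factor Cox7a2l, and Atp5s and Atp5sl. Ndufa4 and Ndufa4l2 were placed with complex IV, to which Ndufa4 belongs. Cyc1, which encodes the complex III subunit cytochrome c1, has another name start and is not among the 86.

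The respiratory chain sits in the inner mitochondrial membrane. Complex I takes electrons from NADH and complex II from succinate, both pass them to coenzyme Q, complex III hands them to cytochrome c, and complex IV gives them to oxygen. Complexes I, III and IV pump protons, and complex V, the ATP synthase, uses the proton gradient to make ATP. All complexes except complex II combine nuclear-encoded subunits with subunits encoded by mitochondrial DNA, which are not analysed here. Several complex IV subunits exist as alternative isoforms from separate genes. A growing oocyte accumulates mitochondria and stores transcripts for use after transcription stops.

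The tested oocytes came from 5-week-old females with a conditional knockout of Zfp36l2 and the comparison oocytes from floxed females of the same age, which carry the loxP-flanked alleles without the deletion. Which promoter drives the deletion is not stated in the labels. All females were primed with 10 IU of PMSG, and fully grown, germinal-vesicle-stage oocytes were collected 46 hours later in medium with 5 μM milrinone, which keeps them in meiotic arrest; only oocytes enclosed by cumulus cells were taken, and those cells and the zona pellucida were then stripped off. There were 24 knockout oocytes (1, 7, 8 and 8 from mice 1 to 4) and 26 floxed oocytes (5, 7, 7 and 7 from mice 1 to 4). Counts of a mouse's oocytes were added up, so that the mouse was the replicate, with 4 mice of each genotype and knockout mouse 1 represented by a single oocyte.

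Total counts were 4332108 to 6233840 per knockout oocyte and 1746007 to 6120317 per floxed oocyte, so the shallowest libraries were all floxed. Levels are CPM, counts divided by a library's total and scaled to 1000000, a share of that library that does not show a change in the RNA content of a whole oocyte. The Zfp36l2 row had 2.77, 1.61, 2.56 and 1.06 CPM in knockout mice, against 3.51, 1.96, 4.17 and 3.44 CPM in floxed mice. The change, knockout over floxed on the log2 scale, was −0.78 (SE 0.43, edgeR adjusted p = 0.208), so this row did not separate the genotypes; the labels do not say how much of the transcript the deletion leaves. The 12 oocyte markers together had 5320.9 to 5934.1 CPM in knockout mice and 5266.1 to 6484.4 CPM in floxed mice. Of the 11 oocyte markers tested, 10 had a log2 fold change below 0 (median −0.12). Figla was the only one called, higher (log2 0.70, edgeR adjusted p = 0.00618). Of 14 cumulus or granulosa markers 11 were in the table, at 157.0 to 303.7 CPM in knockout mice and 157.9 to 240.7 CPM in floxed mice. The 2 blood or immune markers in the table, of 7, summed to 1.85 to 6.09 CPM in knockout mice and 5.16 to 11.7 CPM in floxed mice. The 2 endothelial or stromal ones, of 5, were at 21.4 to 36.2 CPM in knockout mice and 95.2 to 176.5 CPM in floxed mice, nearly all of it Pecam1 (log2 fold change −2.53, adjusted p = 0.000487). Of the 11 granulosa markers 4 had a log2 fold change below 0 (median 0.08), and Cyp11a1 was the only one called, lower (0.034 ± 0.067 CPM in knockout mice, 3.88 ± 2.07 CPM in floxed mice). Inha (log2 0.90, adjusted p = 0.067), Hsd3b1 (1.62, 0.124) and Kitl (0.87, 0.117) had higher means in knockout mice without passing the test. The part of these markers in the results was not tested. Mouse 1 stood apart in both genotypes: 7 members (Ndufab1, Ndufv2, Uqcrfs1, Cox5a, Atp5b, Atp5d and Sdhaf1) were at 1.5 times or more the mean of the other mice in knockout mouse 1 and also in floxed mouse 1, and 0 members were so in mouse 2, 3 or 4 of both genotypes.

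Respiratory chain transcripts were present in nearly every oocyte, and 83 of the 86 members had counts in all 50. The exceptions were Cox7a1, Ndufa4l2 and Sdhaf1. The genes of complexes I to V together made up 0.653% of all counts in knockout mice and 0.663% in floxed mice. To compare levels between genes, CPM were divided by transcript length in kilobases. The median level per kilobase was 85.1 CPM for complex I, 91.2 for complex II, 95.8 for complex III, 102.5 for complex IV and 107.0 for complex V, so the subunits of different complexes had like levels.

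**Figure D1:**
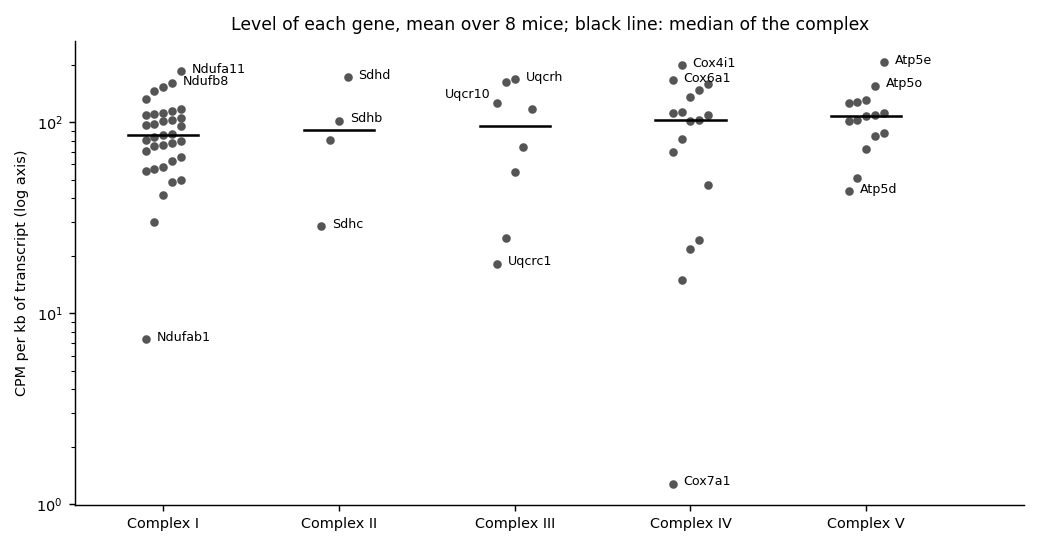
Level of each complex I to V gene in CPM per kilobase of transcript on a log axis, as the mean over all 8 mice; each point is a gene, the black lines are the medians of the complexes, and the 2 highest genes and the lowest gene of each complex are named. Medians lie between 85.1 and 107.0, and Cox7a1 at 1.28 and Ndufab1 at 7.34 lie far below the rest of their complexes.

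In complex I the highest levels per kilobase were those of Ndufa11 (185.5 CPM) and Ndufb8 (159.6 CPM), both accessory subunits, and the lowest was that of Ndufab1 (7.34 CPM), the mitochondrial acyl carrier protein. The Ndufab1 value rests on an annotated transcript of 3479 bases and may be too low if the oocyte uses a shorter form. Complex II had Sdhd (172.1 CPM) and Sdhb (101.7 CPM) at the top and Sdhc (28.5 CPM) at the bottom, per kilobase. The Sdhc value has the same limit, as it rests on an annotated transcript of 3171 bases. Before division by length Sdhc averaged 90.2 CPM and Sdhb 116.1 CPM. Sdhc and Sdhd anchor the complex in the membrane, and Sdhb carries its iron-sulfur clusters. In complex III the order ran from Uqcrh (167.3 CPM) and Uqcr10 (161.6 CPM), small subunits, to Uqcrc1 (18.2 CPM), a large core subunit. Complex IV spanned the widest range, from Cox4i1 (198.9 CPM) and Cox6a1 (165.6 CPM) to Cox7a1 (1.28 CPM), the heart and muscle isoform of subunit VIIa. In complex V, Atp5e (206.6 CPM) and Atp5o (155.0 CPM), the epsilon subunit and the stalk subunit OSCP, were highest per kilobase, and Atp5d (43.4 CPM), the delta subunit of the central stalk, was lowest.

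The genotypes differed in few members. Of the 86 members, all of which passed the filter on low counts, 5 rose and 7 fell in knockout oocytes (edgeR quasi-likelihood test on mouse sums, Benjamini-Hochberg adjusted p under 0.05 over 15029 genes). Without mouse 1 of both genotypes 10 rose and 12 fell, the calls added being those of Atp5d, Atp5g3, Cox6b2, Ndufb9, Ndufs1, Ndufv1, Sdhaf1, Sdhaf2, Sdhc and Uqcrc2. The calls over all genes grew as well, to 3182 higher and 3549 lower, from 2164 and 1984 with all mice. With single mice left out, 3 to 6 rose and 3 to 10 fell; the counts that moved by more than 1.5 times were 3 higher without knockout mouse 3, knockout mouse 4 or floxed mouse 2, and 4 lower without knockout mouse 2 and 3 lower without floxed mouse 2 or 4. The 5 that rose were Ndufa4l2, Cox8c, Cox4i2, Uqcrc1 and Uqcrb, and the 7 that fell were Ndufb7, Sdhaf3, Ndufs6, Atp5g2, Ndufa9, Atp5j2 and Cox7a2l. Over all genes tested, 27.6% were called, 14.4% higher and 13.2% lower, so the 12 members called, 13.95% of them, made up a smaller share than the background; the difference between these shares was not tested. In 23 members the 4 knockout mice did not overlap the 4 floxed mice (8 higher, 15 lower), against 31.0% of all genes tested (2404 higher, 2248 lower). The difference in these splits was not tested. The median log2 fold change was −0.07 over the members and −0.01 over all genes. An absolute log2 fold change under 0.5 was found in 78 of the 86 members and in 54.1% of all genes. The median standard error was 0.12 for members and 0.26 for all genes. Among genes averaging 30 to 250 CPM, the median absolute log2 fold change was 0.15 for 77 members and 0.27 for all 6419 genes. In that range 8 members were called, 10.4%, against 28.7% of the genes.

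**Figure D2:**
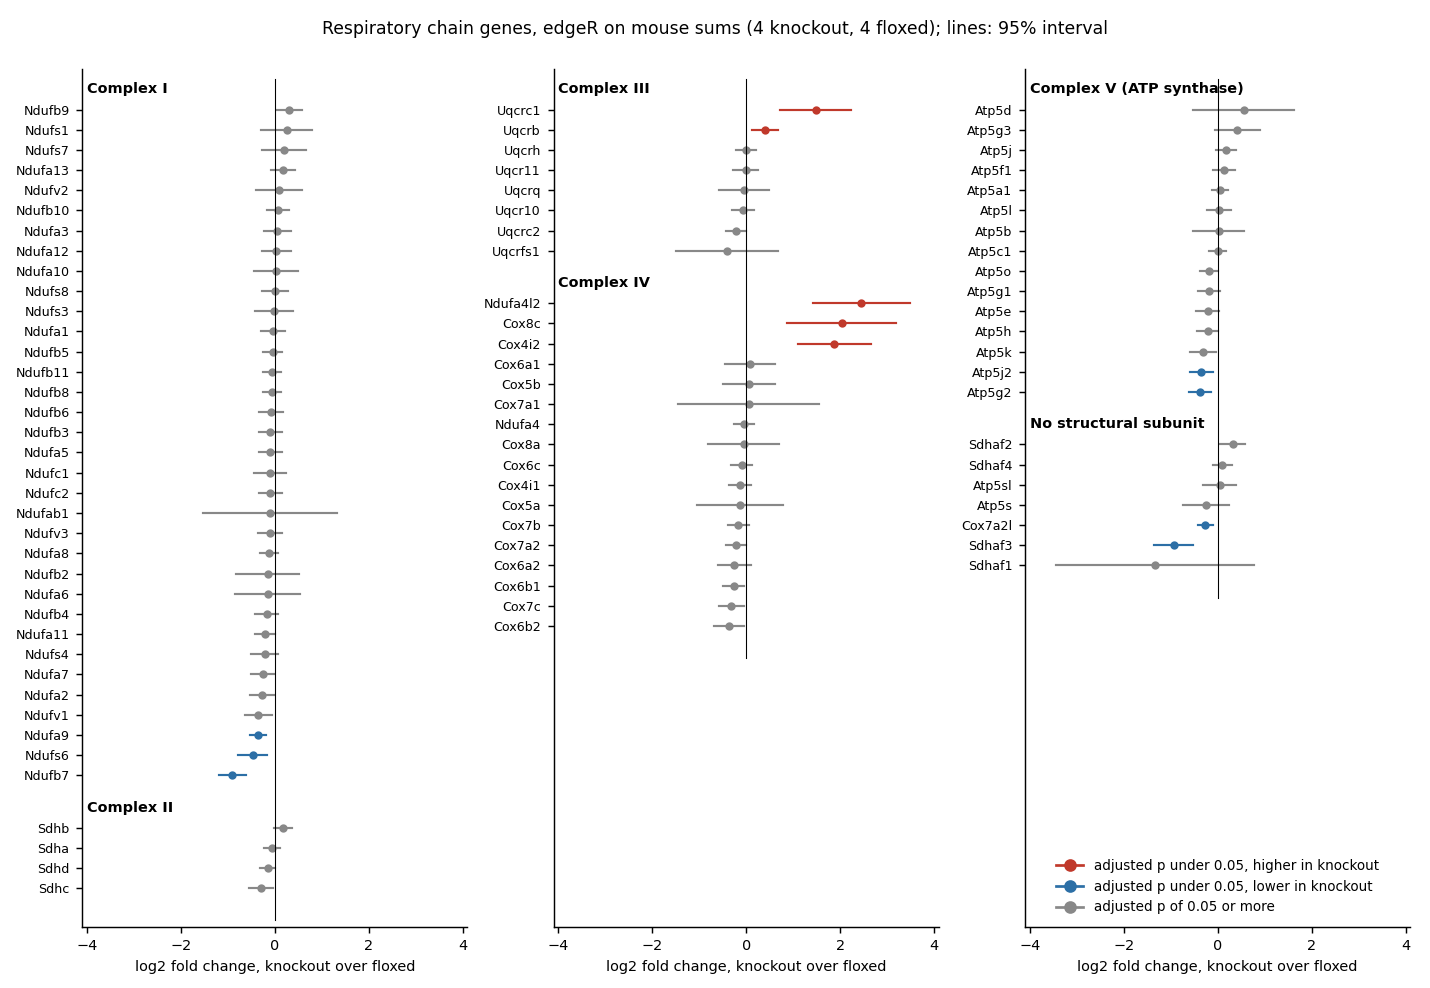
Log2 fold change (knockout over floxed) of 85 of the 86 members with its 95% interval, from edgeR on the sums of 4 knockout and 4 floxed mice, grouped by complex and ordered by fold change; red marks the 5 genes called higher, blue the 7 called lower, grey the rest. Most points lie within 0.5 of 0, and Ndufa4l2, Cox8c and Cox4i2 of complex IV and Uqcrc1 of complex III stand to the right, with their intervals above 0.

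By complex, 0 genes rose and 3 fell in complex I, 0 and 0 in complex II, 2 and 0 in complex III, 3 and 0 in complex IV, and 0 and 2 in complex V. The shares called were 8.57%, 0.0%, 25.0%, 17.65% and 13.33% of complexes I, II, III, IV and V, against 27.6% of all genes. Differences between these shares were not tested. The other 2 that fell, Sdhaf3 and Cox7a2l, are no structural subunits. The median log2 fold change was −0.09 in complex I, −0.11 in complex II, −0.03 in complex III, −0.09 in complex IV and −0.00 in complex V.

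The 3 complex IV genes that rose are all alternative isoforms or relatives of a subunit with another, more abundant form. Ndufa4l2, the Ndufa4-like gene known to respond to hypoxia, lies on chromosome 10 (GRCm38 127514967 to 127517154). It had 11.5, 25.1, 27.4 and 30.1 CPM in knockout mice, against 5.96, 5.96, 1.54 and 3.50 CPM in floxed mice. All knockout mice were above all floxed mice, and 21 of 24 knockout oocytes were above the highest floxed oocyte. It rose 5.47-fold, a log2 fold change of 2.45 (SE 0.46) with an edgeR adjusted p of 0.00481. Its abundant relative Ndufa4 averaged 89.0 ± 1.92 CPM in knockout mice and 89.5 ± 5.34 CPM in floxed mice (SD, n = 4 each), which is a log2 difference of −0.05 (SE 0.09).

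Cox4i2, the isoform of subunit IV known from lung and from cells at low oxygen, lies on chromosome 2 (152754173 to 152765037). It had 19.4, 32.3, 27.1 and 32.5 CPM in knockout mice, against 3.36, 7.51, 9.05 and 9.45 CPM in floxed mice. The mice of the genotypes did not overlap, and 23 of 24 knockout oocytes were above the highest floxed oocyte. It rose 3.67-fold (log2 1.88, SE 0.35, edgeR adjusted p = 0.00432). Cox4i1, the usual isoform, averaged 143.7 ± 3.46 CPM in knockout mice and 152.6 ± 21.1 CPM in floxed mice (log2 −0.12, SE 0.10). Per kilobase of transcript, Cox4i2 made up 16.5% ± 3.42 of the 2 subunit IV transcripts in knockout mice and 4.86% ± 2.19 in floxed mice (SD, n = 4 each), so isoform 1 remained the main form in both genotypes.

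Cox8c, an isoform of subunit VIII known from testis, lies on chromosome 12 (102899316 to 102900526). It had 3.00, 15.9, 22.2 and 23.05 CPM in knockout mice, against 3.86, 2.65, 4.64 and 4.28 CPM in floxed mice. Knockout mouse 1, the mouse with a single oocyte, lay within the floxed range, and the other 3 lay above it; 19 of 24 knockout oocytes exceeded the highest floxed oocyte. Its rise by a log2 of 2.03 (SE 0.52) had an edgeR adjusted p of 0.0186. The call was lost without knockout mouse 3 (adjusted p = 0.0551), without knockout mouse 4 (0.0518) and without floxed mouse 2 (0.0615), where the log2 fold change was 1.81, 1.78 and 1.89. Its usual counterpart Cox8a averaged 59.2 ± 13.4 CPM in knockout mice and 60.2 ± 31.1 CPM in floxed mice (log2 −0.06, SE 0.34), and Cox8c made up 24.8% ± 14.2 of the 2 forms per kilobase in knockout mice and 8.93% ± 5.42 in floxed mice.

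**Figure D3:**
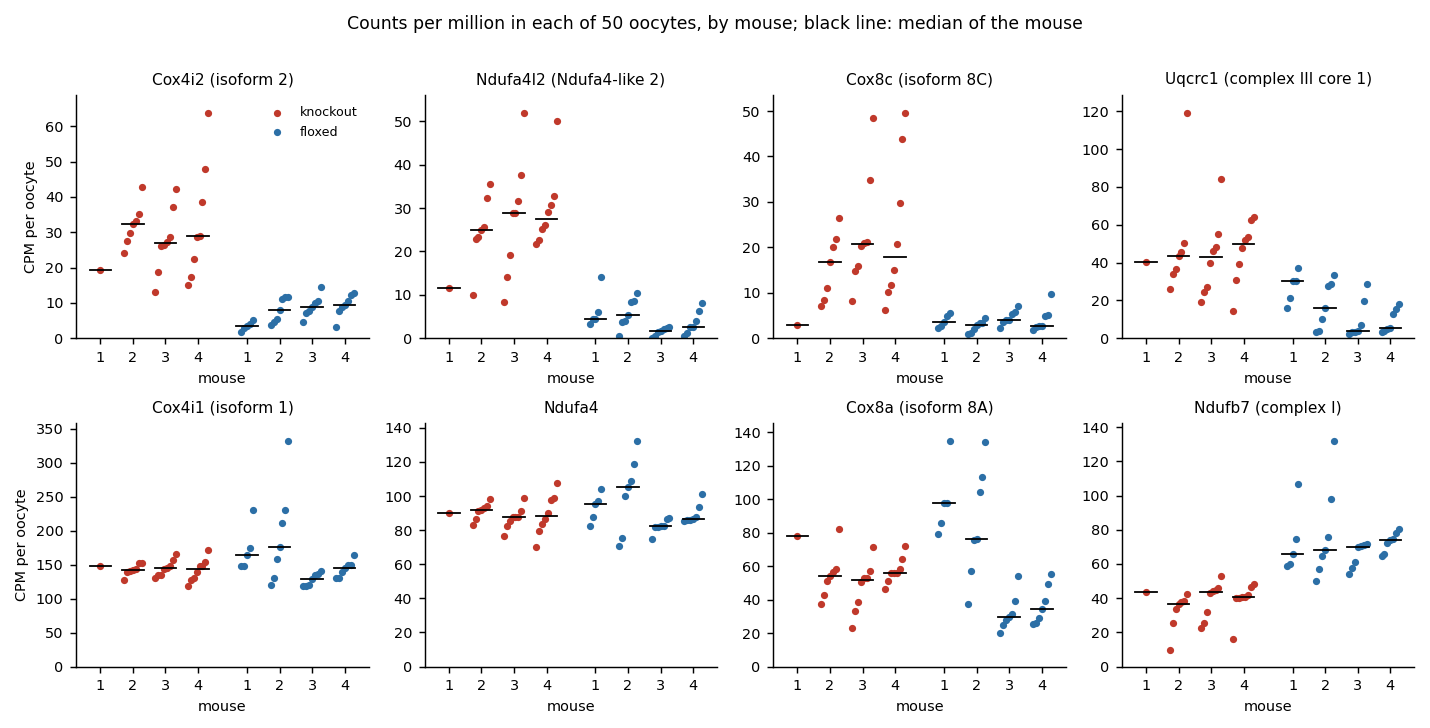
CPM in each of the 24 knockout (red) and 26 floxed (blue) oocytes by mouse, sorted by value within a mouse, with the median of the mouse as a black line; the upper row holds Cox4i2, Ndufa4l2, Cox8c and Uqcrc1, the lower row the usual forms Cox4i1, Ndufa4 and Cox8a, and Ndufb7. Knockout oocytes lie above floxed oocytes in most of the upper row and below them for Ndufb7, while the usual forms overlap.

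The other alternative isoforms of complex IV did not pass the test with all mice. Cox6a2, the heart and muscle form of subunit VIa, made up 20.3% ± 2.85 of the 2 forms per kilobase in knockout mice and 25.6% ± 7.25 in floxed mice, the rest being Cox6a1. Cox6b2, known from testis, made up 46.2% ± 4.48 in knockout mice and 47.9% ± 1.76 in floxed mice, about as much as Cox6b1. The Cox6b2 level had a log2 fold change of −0.36 (adjusted p = 0.0872). It was called lower in 4 of 16 alternatives: without knockout mouse 1 (−0.52, 0.0112), without mouse 1 of both genotypes (−0.54, 0.00658), by DESeq2 (adjusted p = 0.025) and by limma-voom (0.00407). Over the 16 alternatives its log2 fold change ran from −0.54 to −0.165, and its adjusted p reached 0.502. Leaving out floxed oocytes below the lowest knockout total did not call it. For Cox7a1 against Cox7a2 the share was 1.03% ± 0.15 in knockout mice and 0.85% ± 0.67 in floxed mice (SD, n = 4 each for all shares). Of these 6 alternative genes (Cox4i2, Cox6a2, Cox6b2, Cox7a1, Cox8c and Ndufa4l2) 3 rose and 0 fell with all mice, and of their 6 usual counterparts 0 rose and 0 fell. Over all genes tested, 14.4% rose and 13.2% fell. With 6 genes on each side, the difference between the isoform groups was not tested. Cox6c, which has no other isoform, averaged 78.1 ± 2.48 CPM in knockout mice and 81.1 ± 5.53 CPM in floxed mice.

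In complex III, Uqcrc1, the core 1 subunit, lies on chromosome 9 (108936633 to 108949623). It had 40.2, 49.4, 41.8 and 46.2 CPM in knockout mice, against 27.4, 16.9, 9.78 and 8.68 CPM in floxed mice. The mice did not overlap, and 16 of 24 knockout oocytes were above the highest floxed oocyte. It rose 2.78-fold (log2 1.48, SE 0.34, edgeR adjusted p = 0.0116), and it had the largest spread between oocytes of the members that averaged at least 10 CPM. Uqcrb, a small subunit near the ubiquinone site, had 44.8, 48.5, 45.7 and 43.8 CPM in knockout mice, against 33.7, 32.9, 33.7 and 34.7 CPM in floxed mice, again without overlap. It rose by a log2 of 0.40 (SE 0.13), with an edgeR adjusted p of 0.0419. The Uqcrb call was lost when any mouse but knockout mouse 1 was left out (adjusted p 0.0837 to 0.159), and 3 annotated near-identical copies of this gene could share its reads. Uqcrc2, the other core subunit, averaged 209.2 ± 21.3 CPM in knockout mice and 236.0 ± 15.3 CPM in floxed mice (log2 −0.21, SE 0.10, adjusted p = 0.129).

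Among the genes that fell, Ndufb7 and Sdhaf3 changed most. Ndufb7, an accessory subunit on the intermembrane side of complex I, lies on chromosome 8 (83566671 to 83571626). It had 43.6, 32.3, 38.3 and 39.4 CPM in knockout mice, against 71.1, 70.3, 64.9 and 72.7 CPM in floxed mice. All knockout mice were below all floxed mice, and 0 of 24 knockout oocytes reached the floxed median of 70.1 CPM. In log2 terms the change was −0.90 (SE 0.13), with an edgeR adjusted p of 0.00154. Sdhaf3, which helps mature the iron-sulfur subunit of complex II, had 15.0, 15.6, 18.1 and 19.0 CPM in knockout mice, against 29.9, 26.1, 35.9 and 34.6 CPM in floxed mice (log2 −0.94, SE 0.18, adjusted p = 0.00546). Again the groups did not overlap, and 0 of 24 knockout oocytes reached the floxed median of 30.3 CPM.

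The promoters of members were searched for the sites of NRF1, GABP and YY1, the factors best known to bind promoters of respiratory chain genes. RefSeq windows (GRCm38.p6) from 250 bases before to 50 bases after the start were at hand for 71 of the 86 members and 11322 tested genes. The NRF1 core CGCATGCG was in 9 members (12.7%), against 4.0% of tested genes and 1.9% of all windows. The ETS motif CCGGAAG, which GABP reads, was in 19 members (26.8%), against 17.8% of tested genes and 8.9% of all windows, and the YY1 motif AAGATGG in 12 members (16.9%), against 8.3% of tested genes and 6.3% of all windows. Both strands were read, the NRF1 core is the same on both, and no enrichment was tested. ACGTG, the core of the hypoxia response element, was in 26.8% of members and 27.6% of tested genes. Of the 5 members that rose, Uqcrc1 was the only one with a window, while all 7 that fell had one. Members with the NRF1 core had 1 gene called higher and 1 lower (median log2 −0.02), and those without it 0 and 6 (−0.10). For the ETS motif the counts were 0 higher and 2 lower with it (−0.06) and 1 and 5 without it (−0.10), and for the YY1 motif 0 and 3 with it (−0.08) and 1 and 4 without it (−0.09). With so few rises searched, against 14.4% higher and 13.2% lower over all genes tested, nothing is read from these counts.

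The windows of 3 genes are shown, those of the called genes Uqcrc1 and Ndufb7 and that of Atp5j, in which all 3 motifs stand together; capitals mark the NRF1 core, the ETS motif and the YY1 motif on either strand. The Uqcrc1 window is chr9:108936398-108936697 on the plus strand, that of Ndufb7 is chr8:83566508-83566807 on the plus strand, and that of Atp5j, the second of 2 annotated starts, is chr16:84834927-84835226 on the minus strand. Uqcrc1 has the NRF1 core close to its start, and Ndufb7 has the ETS motif.
Uqcrc1: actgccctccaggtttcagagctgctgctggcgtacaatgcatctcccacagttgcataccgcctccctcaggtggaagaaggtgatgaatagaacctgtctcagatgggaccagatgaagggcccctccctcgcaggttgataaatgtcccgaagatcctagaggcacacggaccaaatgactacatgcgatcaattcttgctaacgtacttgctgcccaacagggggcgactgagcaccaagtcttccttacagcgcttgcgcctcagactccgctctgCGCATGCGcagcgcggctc
Ndufb7: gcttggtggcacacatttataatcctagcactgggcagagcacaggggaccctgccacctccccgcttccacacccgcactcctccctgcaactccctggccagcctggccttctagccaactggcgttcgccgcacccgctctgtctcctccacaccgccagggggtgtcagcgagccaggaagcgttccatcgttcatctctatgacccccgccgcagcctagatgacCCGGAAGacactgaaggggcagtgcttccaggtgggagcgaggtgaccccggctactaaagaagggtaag
Atp5j: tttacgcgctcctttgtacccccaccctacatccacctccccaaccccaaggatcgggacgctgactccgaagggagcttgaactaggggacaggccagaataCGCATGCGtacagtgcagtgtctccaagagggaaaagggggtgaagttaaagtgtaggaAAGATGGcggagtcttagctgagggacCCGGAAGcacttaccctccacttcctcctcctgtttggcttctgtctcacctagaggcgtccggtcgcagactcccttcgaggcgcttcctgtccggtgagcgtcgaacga

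Zfp36l2 is a zinc finger protein that binds AU-rich elements near the ends of messenger RNAs, with UAUUUAU as its known core, and speeds their decay. The longest annotated 3′ untranslated region (UTR, GENCODE vM21) of the members had a median of 187 bases, against 1003 bases for 13806 tested genes with at least 20 bases. TATTTAT was found in 6 of 86 members (7.0%) and in 27.7% of those genes. Among genes with at most 408 bases, the upper quartile of the members, it was in 1 of 64 members and in 5.7% of 3547 genes. The 6 members were Cox7a2, Ndufs4, Ndufv2, Sdhaf3, Sdhc and Uqcrc2, of which 0 rose and 1 fell, Sdhaf3, with a median log2 fold change of −0.22; members without the site had 5 called higher and 6 lower and a median of −0.06. Over all tested genes, 17.0% of the 3830 genes with the site rose and 11.9% fell, and 13.9% of the 9976 without it rose and 13.6% fell. None of the 5 members that rose held TATTTAT in this region.

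The sites of 3 members are shown with 10 bases on either side and the core in capitals. Sdhaf3 was the only called member with such a site. Cox7a2 and Uqcrc2 have the shortest regions among the members that hold it. They lie at chr6:7039213-7039239 on the plus strand for Sdhaf3 (the first of 2 sites, starting at base 166 of 3922), at chr9:79755438-79755464 on the minus strand for Cox7a2 (base 93 of 186) and at chr7:120659300-120659326 on the plus strand for Uqcrc2 (base 206 of 420), all in GRCm38.
Sdhaf3: tgcaatgacaTATTTATttgctgtgtg
Cox7a2: tggggatcaaTATTTATtgatgtgtat
Uqcrc2: agtcagcaagTATTTATtaaatgcttt

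The other 5 genes that fell changed by a log2 of 0.5 or less. Ndufa9, an accessory complex I subunit near the quinone site, averaged 169.4 ± 7.62 CPM in knockout mice and 210.4 ± 11.2 CPM in floxed mice (log2 −0.35, SE 0.08, adjusted p = 0.00944). Ndufs6, a zinc-binding accessory subunit, averaged 40.4 ± 5.78 CPM in knockout mice and 54.4 ± 1.56 CPM in floxed mice (log2 −0.47, SE 0.14, adjusted p = 0.0314). For Atp5g2, a gene of the membrane ring subunit c, the averages were 54.8 ± 1.83 CPM in knockout mice and 69.5 ± 4.00 CPM in floxed mice (log2 −0.38, SE 0.11, adjusted p = 0.0245). The mice of the genotypes did not overlap for these 3 genes. Atp5j2, the membrane subunit f, averaged 87.6 ± 3.98 CPM in knockout mice and 108.4 ± 11.4 CPM in floxed mice (log2 −0.35, SE 0.11, adjusted p = 0.0368). Cox7a2l, which joins complexes III and IV, averaged 151.9 ± 2.76 CPM in knockout mice and 177.2 ± 6.94 CPM in floxed mice (log2 −0.26, SE 0.07, adjusted p = 0.026; SD, n = 4 each for all 5). These 2 were also without overlap between the genotypes. Annotated near-identical copies exist for Atp5g2 and Ndufs6, as for 13 members in all, and could share their reads. With a single mouse left out, the call was lost for Ndufs6 without knockout mouse 2 or floxed mouse 2, 3 or 4 (adjusted p 0.063 to 0.0881), for Atp5g2 without knockout mouse 2 or 3 or floxed mouse 2 or 4 (0.0508 to 0.067), for Atp5j2 without knockout mouse 2, 3 or 4 or floxed mouse 2 or 4 (0.0665 to 0.0994), and for Cox7a2l without floxed mouse 2 or 4 (0.0703 and 0.0788).

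Depth moved with these lower values. Within the floxed oocytes, the summed CPM of complexes I to V were lower the larger the oocyte's total (Pearson's r = −0.902, Spearman's rho = −0.869, 26 oocytes of 4 mice); within the knockout oocytes r was −0.538 and rho −0.494 (24 oocytes of 4 mice). Both measures share the library total. The median slope of log2 count on log2 total in floxed oocytes was 0.62 for the members and 1.12 for all genes, where a slope of 1 means that a gene's share does not change with depth. The members are short and densely covered, with a median of 0.45 counts per transcript base and oocyte, against 0.046 for all genes. The comparison was therefore repeated after leaving out the floxed oocytes with a total below 4332108, the lowest knockout total, a choice made after seeing the data that kept 1, 2, 7 and 5 oocytes of floxed mice 1 to 4. Then 7 members were called higher and 2 lower, against a background of 12.1% higher and 11.9% lower. Ndufb7 and Sdhaf3 were the 2 still called lower. Ndufa9 (log2 −0.25, adjusted p = 0.0557), Ndufs6 (−0.34, 0.142), Atp5g2 (−0.24, 0.183), Atp5j2 (−0.15, 0.331) and Cox7a2l (−0.13, 0.263) were not called. All 5 genes called higher were still called higher, and Ndufb9 was also called higher (log2 0.39, adjusted p = 0.0451). The part of depth in the fall of the 5 genes was not tested further.

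**Figure D4:**
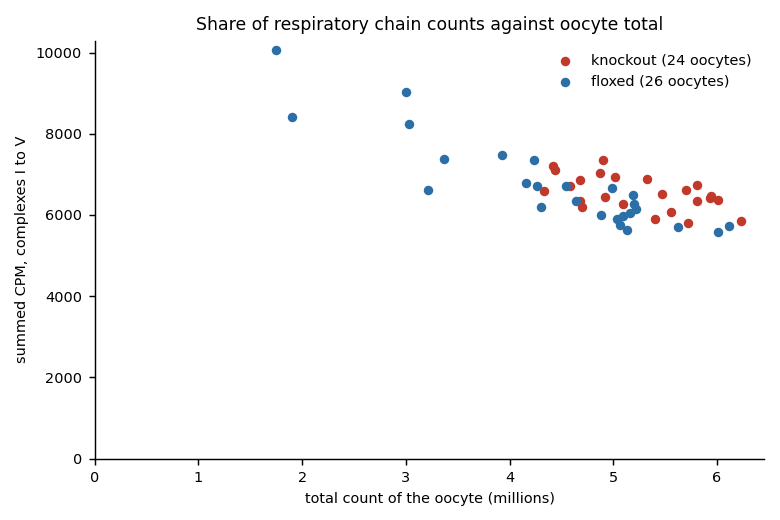
Summed CPM of the 79 genes of complexes I to V in each oocyte against the oocyte's total count, on an axis in units of 1000000 counts; red points are the 24 knockout oocytes and blue points the 26 floxed oocytes. The sums run from 5797.7 to 7360.5 CPM in knockout oocytes and from 5572.1 to 10065.3 CPM in floxed oocytes, and the highest belong to floxed oocytes with small totals.

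Summed over each complex, the genotypes did not separate. Complex I had 2689.2 ± 39.9 CPM in knockout mice and 2767.4 ± 254.7 CPM in floxed mice, and complex II had 642.7 ± 30.6 CPM in knockout mice and 661.8 ± 17.9 CPM in floxed mice. For complex III the sums were 629.6 ± 7.89 CPM in knockout mice and 623.7 ± 66.1 CPM in floxed mice, and for complex IV 1022.9 ± 46.7 CPM in knockout mice and 1033.2 ± 172.5 CPM in floxed mice. Complex V had 1546.0 ± 39.9 CPM in knockout mice and 1543.2 ± 189.3 CPM in floxed mice (SD, n = 4 each throughout). The difference in mean log2 sum was −0.04 for complexes I and II, 0.02 for complex III, −0.00 for complex IV and 0.01 for complex V. All of these are smaller than the SD of the log2 sums between mice, pooled over both genotypes. That SD was 0.096, 0.057, 0.110, 0.178 and 0.128 for complexes I, II, III, IV and V. With the shallow floxed oocytes left out as above, the differences were 0.07, −0.00, 0.12, 0.15 and 0.10 for complexes I, II, III, IV and V. Scaled by TMM factors they were −0.08, −0.08, −0.02, −0.04 and −0.03, so no direction is given for any complex.

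**Figure D5:**
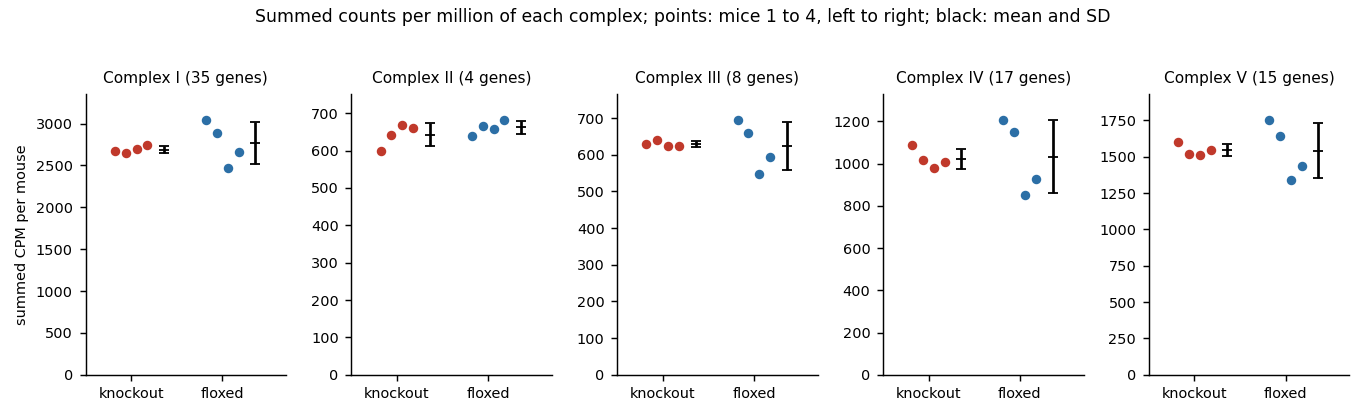
Summed CPM of the genes of each complex in mice 1 to 4 of each genotype, with the mean and SD in black; knockout mice are red and floxed mice blue, and each panel has its own axis from 0. Knockout and floxed mice overlap in all 5 complexes, and floxed mice spread more widely than knockout mice in complexes I, III, IV and V.

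In complex I, 0 of the 7 nuclear-encoded core subunits were called with all mice, against 27.6% of all genes. Ndufv1, the flavin-bearing subunit that oxidises NADH, averaged 115.5 ± 19.8 CPM in knockout mice and 143.4 ± 11.4 CPM in floxed mice (log2 −0.35, SE 0.13, adjusted p = 0.074). It was called lower in 4 of 16 alternatives, among them DESeq2 (adjusted p = 0.0483) and limma-voom (0.0228). Ndufv2, Ndufs1, Ndufs3, Ndufs7 and Ndufs8, which carry iron-sulfur clusters or shape the peripheral arm, lay between log2 −0.02 and 0.25. Ndufs1, the largest of them, had 48.0, 92.8, 105.3 and 104.5 CPM in knockout mice, against 57.8, 67.8, 90.0 and 71.8 CPM in floxed mice, with mouse 1 lowest in both genotypes. Ndufs1 was called higher in 2 of 16 alternatives, without mouse 1 of both genotypes (log2 0.315, adjusted p = 0.0477) and by limma-voom (0.38, 0.012). Ndufs7 was called higher in 1, by limma-voom (0.39, 0.0242). Of the 28 accessory subunits, 3 fell and 0 rose, 10.7% called, against 13.2% lower and 14.4% higher over all genes. The difference between core and accessory subunits was not tested. Accessory subunits whose mice did not overlap although they missed the threshold were Ndufb9 (75.7 ± 1.77 CPM in knockout mice, 59.7 ± 7.65 CPM in floxed mice), Ndufa13 (65.4 ± 3.05 CPM in knockout mice, 56.5 ± 5.33 CPM in floxed mice) and Ndufa7 (53.1 ± 2.86 CPM in knockout mice, 62.0 ± 2.94 CPM in floxed mice).

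All 4 subunits of complex II missed the threshold with all mice. Sdha, the flavoprotein that oxidises succinate, had 208.4, 230.3, 248.9 and 240.8 CPM in knockout mice, against 225.2, 234.2, 241.5 and 243.0 CPM in floxed mice, and had the smallest spread between oocytes of all members that averaged at least 10 CPM. Its groups overlapped, and its log2 fold change was −0.06 (95% interval −0.24 to 0.11). Sdhb averaged 124.5 ± 6.44 CPM in knockout mice and 107.7 ± 5.47 CPM in floxed mice (log2 0.17, adjusted p = 0.159). Sdhd averaged 203.6 ± 5.84 CPM in knockout mice and 220.1 ± 8.67 CPM in floxed mice (log2 −0.15, adjusted p = 0.137). For both of these the mice did not overlap. Sdhc averaged 82.4 ± 2.18 CPM in knockout mice and 98.1 ± 10.4 CPM in floxed mice (log2 −0.29, adjusted p = 0.0776), with overlap only at floxed mouse 1, which had 82.9 CPM. Sdhc was called lower in 6 of 16 alternatives, among them without floxed mouse 1 (log2 −0.41, adjusted p = 0.0103), without knockout mouse 1 (−0.33, 0.0462) and without mouse 1 of both genotypes (−0.40, 0.00425). Sdhaf2, which inserts the flavin into Sdha, was the member just outside the threshold (158.2 ± 22.9 CPM in knockout mice, 123.7 ± 8.89 CPM in floxed mice, log2 0.32, adjusted p = 0.07), and Uqcrb at 0.0419 was the one just inside. Sdhaf1, another factor for the iron-sulfur subunit, had 21.5, 2.25, 2.05 and 2.16 CPM in knockout mice, against 40.9, 7.27, 8.22 and 7.59 CPM in floxed mice. Mouse 1 stood far above the others in both genotypes, and the gene was not called (log2 −1.33, SE 0.94, adjusted p = 0.326). With mouse 1 of both genotypes left out its log2 fold change was −1.92 (adjusted p = 0.000637). An annotated near-identical copy of Sdhaf1 could share its reads.

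In complex V, the 3 genes of subunit c encode the same mature protein. Their shares are of the summed level per kilobase, and their difference was not tested. Atp5g1 made up 47.5% ± 3.44 in knockout mice and 49.1% ± 1.27 in floxed mice, Atp5g2 29.4% ± 0.63 in knockout mice and 35.1% ± 1.82 in floxed mice, and Atp5g3 23.1% ± 3.59 in knockout mice and 15.8% ± 2.86 in floxed mice (SD, n = 4 each). The Atp5g2 shares of the genotypes did not overlap, the Atp5g1 shares did, and the Atp5g3 share of knockout mouse 1, 17.7%, lay within the floxed range. Of the 3 genes Atp5g2 alone passed the test, and Atp5g3 differed by a log2 of 0.42 (SE 0.21, adjusted p = 0.171). With mouse 1 of both genotypes left out Atp5g3 was called higher (log2 0.68, adjusted p = 0.0048), and limma-voom on single oocytes called it too (0.57, 0.000308). The 5 genes of the catalytic head and central stalk (Atp5a1, Atp5b, Atp5c1, Atp5d and Atp5e) were not called, at log2 −0.21 to 0.55. Atp5d was the one at 0.55, and without mouse 1 of both genotypes it was called higher (0.89, adjusted p = 0.0231). A further 3 complex V genes had mice without overlap and missed the threshold, namely Atp5h (64.1 ± 2.07 CPM in knockout mice, 72.3 ± 3.56 CPM in floxed mice), Atp5k (42.5 ± 0.81 CPM in knockout mice, 51.1 ± 4.49 CPM in floxed mice) and Atp5j (81.1 ± 2.20 CPM in knockout mice, 69.8 ± 4.35 CPM in floxed mice). In complex IV, Cox6b1, Cox7a2, Cox7b and Cox7c were likewise lower without overlap but not called (log2 −0.17 to −0.32, adjusted p 0.0747 to 0.232). Over the 16 alternatives their log2 fold changes ran from −0.385 to −0.045. Cox6b1 and Cox7c were called lower in 2 of these each and Cox7a2 in 1. The slopes of log2 count on log2 total in floxed oocytes were 0.46 to 0.77 for these genes, and the part of depth in their lower values was not tested.

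Members varied little between oocytes of the same mouse. The SD of log2(CPM + 1) around the mouse mean was taken after every library was thinned to 3000000 counts, with 3 shallower oocytes left out. Its median was 0.17 over the 84 members that averaged at least 10 CPM, and 0.28 over all genes at or above that floor. Among genes averaging 30 to 250 CPM, a closer match in level, it was 0.17 for 77 members and 0.25 for all 6419 genes. The smallest values were those of Sdha (0.087), Atp5a1 (0.10) and Atp5c1 (0.10), the last being genes of the alpha and gamma subunits of the ATP synthase. The largest were those of Uqcrc1 (0.91), Ndufa4l2 (0.69) and Sdhaf1 (0.61). Uqcrc1 ran from 14.5 to 119.0 CPM over knockout oocytes, with a median of 44.5 CPM, and from 1.97 to 37.0 CPM over floxed oocytes, with a median of 14.1 CPM.

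Genes linked to the chain but outside the name rule were read in 5 lists, against 27.6% of all genes called. The list of electron carriers holds Cyc1, a complex III subunit that the complex III counts and sums leave out. Cyc1 averaged 51.5 ± 15.9 CPM in knockout mice and 23.2 ± 19.3 CPM in floxed mice (log2 1.13, edgeR adjusted p = 0.11). Among 18 tested genes of mitochondrial transcription and its nuclear regulators, 5 rose and 2 fell, 38.9% of the list (median log2 fold change 0.24, against −0.01 for all genes); no difference from the background was tested. The DNA-binding regulators Yy1 (33.8 ± 9.06 CPM in knockout mice, 6.10 ± 1.75 CPM in floxed mice, log2 2.44) and Gabpa (14.8 ± 4.09 CPM in knockout mice, 3.07 ± 0.69 CPM in floxed mice, log2 2.23), the GABP subunit Gabpb2 (log2 0.98), the coactivator Pprc1 (log2 0.99) and Tfam, which packs and transcribes mitochondrial DNA (80.7 ± 13.2 CPM in knockout mice, 38.2 ± 2.47 CPM in floxed mice, log2 1.04), rose. The coactivator Ppargc1a (0.13 ± 0.12 CPM in knockout mice, 1.18 ± 0.74 CPM in floxed mice, log2 −2.93) and Tfb1m, a mitochondrial ribosomal RNA methyltransferase (69.5 ± 6.33 CPM in knockout mice, 106.3 ± 8.90 CPM in floxed mice, log2 −0.65), fell. Adjusted p-values of these 7 were 0.0006 to 0.0188. Of the 7, Ppargc1a alone lost its call in an alternative, without floxed mouse 3 (adjusted p = 0.066). Nrf1, the regulator whose sites are best known from respiratory chain promoters, averaged 215.3 ± 50.6 CPM in knockout mice and 180.9 ± 2.83 CPM in floxed mice (log2 0.22, adjusted p = 0.337). Knockout mouse 1, a single oocyte, had 141.0 CPM, below all floxed mice, and the other knockout mice had 226.2 to 251.1 CPM; without knockout mouse 1, Nrf1 was called higher (log2 0.32, adjusted p = 0.0094).

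Of 41 tested assembly factors, 4 rose and 4 fell, 19.5% of the list, below the background share (median log2 −0.07). The complex I factors Ndufaf1 (log2 2.61, 6.27 ± 1.19 CPM in knockout mice, 0.99 ± 0.94 CPM in floxed mice) and Foxred1 (0.96) and the complex IV factors Cox15 (1.12), which completes heme A, and Coa3 (0.51) rose. The complex I factor Ndufaf3 (−0.52) and the complex IV factors Cox10 (−0.31), which acts just before Cox15 in heme A synthesis, Coa4 (−0.64) and Coa7 (−0.41) fell. Of 19 genes of electron carriers and coenzyme Q, 2 rose and 1 fell: Etfdh, the enzyme that passes electrons from fatty acid oxidation to coenzyme Q (log2 1.69), Coq6, a coenzyme Q hydroxylase (0.74), and Etfb, a subunit of the flavoprotein that feeds Etfdh (−1.11). Of 9 exchange and inhibitor genes, the adenine nucleotide carrier Slc25a4 (log2 0.58) and the uncoupling protein homologue Ucp2 (1.42) rose and 0 fell. Of 22 genes of the tricarboxylic acid cycle and pyruvate oxidation, Ogdh (log2 0.42), Dlst (0.25) and Suclg1 (0.49) rose, and Idh3b (−0.65), Dld (−0.32), Dlat (−1.29) and Pdhx (−0.27) fell. Dlat, the acetyltransferase of the pyruvate dehydrogenase complex, averaged 39.7 ± 13.3 CPM in knockout mice and 93.7 ± 5.99 CPM in floxed mice (SD, n = 4 each throughout), without overlap. The median log2 fold change was 0.02 for carriers, 0.03 for exchange genes and −0.07 for the last list. The shares called were 15.8%, 22.2% and 31.8% of these 3 lists, against 27.6% of all genes. Among the called genes of these 4 lists, Cox10, Cox15, Etfb, Ucp2, Suclg1, Dlat and Pdhx kept their call in all alternatives, and each of the others lost it when at least 1 mouse was left out (adjusted p 0.051 to 0.182).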

How the data were processed

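Whole-number read counts per gene and oocyte were deposited by the authors in 1 table; per the submitters' processing notes, STAR and the mm10 build were used. Neither the version of STAR nor the program that counted reads, nor how it handled multi-mapping or duplicates, is given in the sources at hand. Per the labels' protocols, cDNA came from the SMARTer Ultra Low Input kit, which marks neither molecules nor strand, so reads of overlapping antisense genes cannot be told apart. Groups and mouse numbers come from sample titles. Whether a number marks a shared litter or day is not given.

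Counts were summed per mouse and fitted over the whole table with edgeR 4.0.16 in R 4.3.3 (TMM, filterByExpr with a minimum count of 10, robust quasi-likelihood test, tested on simulated data), with Benjamini-Hochberg adjustment over 15029 genes and a threshold of 0.05. Intervals are at 95%. The mouse sums were 4332108 to 44498770 counts. Alternatives used DESeq2 1.42.0, other factors and filters, a replicate block, left-out mice and oocytes, and limma 3.58.1 on single oocytes. GENCODE vM21 gave transcript lengths, positions and 3′ untranslated regions (16336 rows matched by RefSeq accession, 198 by symbol, 80 unmatched); levels per kilobase use the shortest principal coding transcript. Near-identical copies are annotated transcripts with at least 95% identity over at least 50% of a member (BLAST+ 2.17.0).

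Members, lists and motifs were chosen with earlier results of these data known. Named are all called members, those whose mice did not overlap, complex II, the core of complex I, the extremes of level and spread, alternative isoforms, and called genes of the lists. Uqcrc2, Sdhaf1, Sdhaf2, Nrf1, Cox6c and the catalytic head genes were added after their values were seen. The values of 1 member are not reported here; it is part of all counts and sums.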

Additional observations from a re-analysis of the deposited data

Results flagged for a closer look

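Among 112 groups of 4 mice examined, 7 held a value farther from its neighbours than Dixon's 95% limit for a share of the range; chance gives about 1 in 20. Ndufv2 had 143.8 CPM in knockout mouse 1, where the nearest knockout mouse had 90.3 CPM, and 128.6 CPM in floxed mouse 1, where the nearest floxed mouse had 83.1 CPM. Cox6b1 had 70.3 CPM in floxed mouse 3, against 77.2 CPM in the nearest floxed mouse, and Cox6b2 had 69.0 CPM in floxed mouse 2, against 60.1 CPM in the nearest. Sdhaf1 had 21.5 CPM in knockout mouse 1, against 2.25 CPM in the nearest knockout mouse, and 40.9 CPM in floxed mouse 1, against 8.22 CPM in the nearest floxed mouse. Uqcrc2 had 177.3 CPM in knockout mouse 1, against 219.4 CPM in the nearest knockout mouse. Of the 7 values, 5 belong to mouse 1, and knockout mouse 1 is a single oocyte.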

How the results depend on the processing

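Of 1329 values for 84 named genes under 16 alternatives, 1169 kept their side of the threshold, 103 fell short of it and 57 newly passed it; 0 called values changed sign. Against 5 members higher and 7 lower, leaving out single mice gave 3 to 6 higher and 3 to 10 lower, and leaving out mouse 1 of both genotypes gave 10 and 12. DESeq2 gave 17 lower, and limma-voom on single oocytes 16 higher and 14 lower. Leaving out floxed oocytes below the lowest knockout total, chosen after seeing the data, gave 2 lower and turned the difference of the complex I sum to 0.066. Over all genes, 2164 were higher and 1984 lower, and single mice left out gave 1359 to 2538 higher and 1219 to 2822 lower. Counts higher and lower were 2785 and 2741 by DESeq2, 3329 and 3414 by limma-voom, and 3182 and 3549 with mouse 1 of both genotypes left out. The replicate block gave 9 members higher and 11 lower, with 2876 and 2947 over all genes, but the labels do not say that the numbers pair mice. Same-numbered mice had deviations correlated at 0.316, −0.004, 0.248 and 0.18 for mice 1 to 4. Knockout mice 1, 3 and 4 each correlated best with the floxed mouse of the same number. Knockout mouse 2 correlated best with floxed mouse 3 (0.089), and knockout mouse 4 nearly as well with floxed mouse 3 (0.167). Whether the numbers pair mice was not tested. The block ended the call of Foxred1 (adjusted p = 0.0539). Knockout mouse 1 rests on 1 oocyte, 4 mice a genotype limit small differences, and counts of reads without molecular identifiers are not independent molecules. The causes of these shifts were not tested.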
